A study of Mus musculus with 6 samples.

Results

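The genes described here are 44 genes of the cell cycle and of DNA replication, chosen by symbol from the gene tables of a mouse liver RNA-seq experiment. They fell into 7 G1 cyclins and E2F factors, 11 genes of DNA replication and 26 genes of mitosis, and all 44 had counts among the 18419 genes with any count. Of these, 43 had enough counts to be tested, as did 13431 genes in all. Bub1, a kinase of the spindle checkpoint, was too low to be tested.

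A cell that leaves quiescence first makes D-type cyclins, which with their kinases release E2F factors from the retinoblastoma protein. E2F then switches on the genes that copy DNA, among them the MCM helicase, its clamp and the enzymes that make deoxynucleotides. The genes of mitosis are held down in quiescence by the DREAM complex, through promoter elements named CHR, and are switched on later in the cycle by MuvB with B-MYB and FOXM1. Most hepatocytes of an adult liver are quiescent, and they can raise their ploidy by copying DNA without dividing.

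The libraries came from the livers of 6 male mice, and every animal carried Mettl14f/f, the floxed gene of an m6A methyltransferase subunit. All 6 began HFD at 8 weeks of age, received an AAV8 vector by tail vein after 10 weeks of HFD, and were sampled 8 weeks after injection. The AAV8-TBG-GFP group of 3 (genotype label WT) served as controls, and the AAV8-TBG-Cre group of 3 (genotype label METTL14 KO) received Cre from the hepatocyte promoter TBG. Other liver cells should therefore keep the gene, and the whole liver was sequenced. In such bulk RNA, fewer cells of a type and less RNA per cell cannot be told apart.

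Library totals lay between 20356440 and 21010508 counts, and TMM factors between 0.913 and 1.02 except for replicate 2 of AAV8-TBG-Cre, at 1.18. The controls are called GFP 1 to 3 here, and the libraries labelled AAV8-TBG-Cre are called Cre 1 to 3, after the replicate numbers. Mettl14 itself had 124, 126 and 111 raw counts in GFP 1 to 3 and 104, 131 and 101 in Cre 1 to 3. Cre 2 had the highest raw count of all. Scaled to library size after TMM normalization, Mettl14 had 6.30, 6.43 and 5.81 CPM in the controls. Cre 1 to 3 had 4.96, 5.38 and 4.86 CPM, so every Cre library lay below every control. Of all genes tested, 13.0% were separated in this direction. The log2 fold change of Mettl14 was -0.29 (SE 0.15, adjusted p = 0.337 in edgeR). Mettl14 did not pass the test, so each direction given here rests on the labels. Counts over the whole transcript cannot show the loss of a floxed part alone. The library names also had 2 forms that the labels do not explain. The short form was used for GFP 1, GFP 2 and Cre 1, and the long form for GFP 3, Cre 2 and Cre 3. Levels are given in CPM, counts scaled to library size after TMM normalization, unless FPKM, which also divides by transcript length, is named.

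Of the mitosis genes tested, 40.0% were called higher in the Cre libraries, and of the replication genes 9.09%. Ccna2 and Top2a, both called higher, act in S phase too and were counted as mitosis genes. The difference between the classes was not tested. A gene was called where edgeR's quasi-likelihood test gave an unadjusted p under 0.05 and the change was 1.2-fold or more. By this rule 13 members were called higher, against 12.0% of all genes tested, and 1 was called lower, against 8.41% of all genes. Those called higher were 10 of the 25 mitosis genes tested, 1 of the 11 replication genes and 2 of the 7 G1 and E2F genes. No member passed an adjusted p under 0.05, which 0.484% of all genes passed as higher and 0.447% as lower. The count of 0 stands beside 14 members with an unadjusted p under 0.05 in edgeR, 6 members past the adjusted threshold in DESeq2 and 0 in limma on log2(FPKM + 1). The 6 in DESeq2 were Ccnd1, E2f8, Mki67, Top2a, Ccna2 and Cdk1. Over all genes, DESeq2 passed 748 as higher and 409 as lower of 18416, and limma 10 and 12 of 12138. Mki67 and Top2a reached FPKM 0.5 in fewer than 3 libraries and were not tested in that limma fit. Without Cre 2 or without GFP 1, 7 members were called higher. Over all genes, calls on the higher side fell too, from 1618 of 13431 to 1108 of 13527 and 1300 of 13738.

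Some low members passed the filter on counts only with the help of the Cre libraries. Of the mitosis genes tested, Ccnb1, Ccnb2, Cdc20, Plk1, Aurkb, Bub1b, Nusap1, Cenpe and Cenpf lay under the minimum of 0.484 CPM in at least 1 GFP library. With no filter on low counts, all 26 mitosis genes could be counted. Their median log2 fold change was then 0.83, and 13 of the 26 were called higher, against 10.6% of all genes in that fit. The median of the 11 replication genes in that fit was -0.03 and that of the 7 G1 and E2F genes 0.50, beside 0.008 for all 18419 genes.

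**Figure D1:**
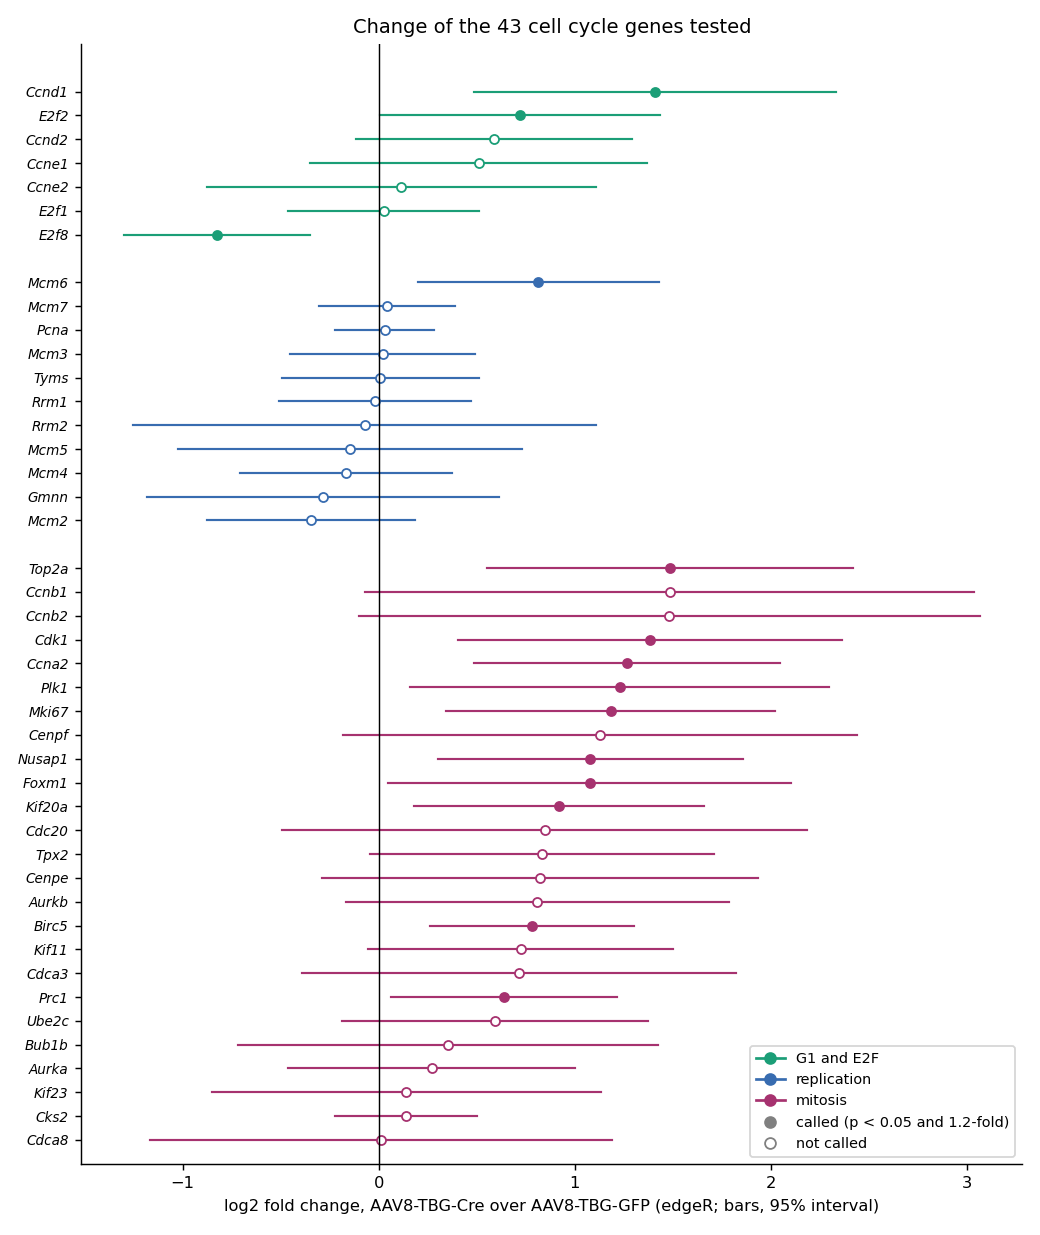
Log2 fold change of each of the 43 members tested (points) with its 95% interval (bars), grouped by class, from edgeR. Filled points were called, and they are 10 mitosis genes, Mcm6, Ccnd1, E2f2 and, on the lower side, E2f8.

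CHR and E2F elements were found in different shares of the mitosis and replication promoters searched. RefSeq promoter windows on GRCm38.p6, the mm10 build of the submitters' processing notes, were found for 34 of the 44 members. Each window held 300 bases, 250 before the annotated start and 50 from it on. Not matched were Aurkb, Ccna2, Ccnd1, Ccnd2, Ccne2, Foxm1, Gmnn, Kif20a, Mcm4 and Tpx2. A CHR was searched on both strands as TTTGAA or TTCGAA, and an E2F element as TTTCCCGC, TTTCGCGC, TTTGCCGC or TTTGGCGC. Where a gene had several windows, a hit in any of them was counted.

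A CHR was found in 16 of 21 mitosis promoters (76.2%), in 2 of 9 replication promoters (22.2%) and in 16.7% of the 10681 tested genes with a window. E2F elements ran the other way, with 4 of 9 replication promoters (44.4%), 1 of 21 mitosis promoters (4.76%) and 4.53% of the tested genes. CCAAT, a binding site of NF-Y searched on both strands, was in 19 of 21 mitosis and 8 of 9 replication promoters, against 42.8% of the tested genes. Positions were counted after the hits were seen. A CHR began within 50 bases of the start in 15 of 21 mitosis promoters (71.4%), in 0 of 9 replication promoters and in 4.26% of the tested genes. Within the mitosis class a CHR was in 5 of the 7 called genes with a window and in 11 of the other 14. A match describes letters in a window and shows no binding.

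The 5 windows below show these elements in members whose values follow, 5′ to 3′ on the strand of the gene, with positions counted from 1 at the 5′ end and the start at base 251. In the 3 mitosis genes, capitals mark every CHR. Plk1, chr7:122159185-122159484, plus strand, had 1 CHR, 30 bases after the start. Cdk1, chr10:69352863-69353162, minus strand, had 2, at positions 180 and 236. The Cdk1 window also held an E2F element, TTTCGCGC at position 120, which is not in capitals. Top2a, chr11:99024140-99024439, minus strand, had a CHR at 4 positions, 72, 111, 131 and 228. In the 2 MCM genes, capitals mark every E2F element. Mcm6, chr1:128359656-128359955, minus strand, had 3, at positions 141, 145 and 204, and the elements at 141 and 145 overlapped on opposite strands. Mcm3, chr1:20820263-20820562, minus strand, had 2, at positions 270 and 289.
Plk1: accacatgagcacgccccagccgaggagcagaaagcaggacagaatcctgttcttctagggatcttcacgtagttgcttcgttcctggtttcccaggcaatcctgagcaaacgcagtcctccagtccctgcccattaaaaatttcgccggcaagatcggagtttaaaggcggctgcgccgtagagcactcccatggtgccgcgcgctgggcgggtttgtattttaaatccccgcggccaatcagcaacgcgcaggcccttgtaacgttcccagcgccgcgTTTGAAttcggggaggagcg
Cdk1: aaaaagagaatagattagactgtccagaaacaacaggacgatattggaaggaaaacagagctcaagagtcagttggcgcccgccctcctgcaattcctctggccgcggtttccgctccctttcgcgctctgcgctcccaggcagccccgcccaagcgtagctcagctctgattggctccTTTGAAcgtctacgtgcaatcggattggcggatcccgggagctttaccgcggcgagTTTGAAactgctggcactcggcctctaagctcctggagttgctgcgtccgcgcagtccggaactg
Top2a: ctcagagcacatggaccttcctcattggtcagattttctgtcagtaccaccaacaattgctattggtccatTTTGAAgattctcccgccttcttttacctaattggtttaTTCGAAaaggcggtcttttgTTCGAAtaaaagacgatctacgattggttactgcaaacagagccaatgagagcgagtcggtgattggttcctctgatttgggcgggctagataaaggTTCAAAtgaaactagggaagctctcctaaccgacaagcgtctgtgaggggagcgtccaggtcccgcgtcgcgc
Mcm6: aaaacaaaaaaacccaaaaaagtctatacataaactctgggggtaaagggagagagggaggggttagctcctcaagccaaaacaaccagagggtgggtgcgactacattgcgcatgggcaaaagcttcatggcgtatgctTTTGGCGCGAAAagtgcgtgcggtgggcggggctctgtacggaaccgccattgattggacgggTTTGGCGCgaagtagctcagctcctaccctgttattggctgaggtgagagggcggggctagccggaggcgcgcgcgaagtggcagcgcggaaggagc
Mcm3: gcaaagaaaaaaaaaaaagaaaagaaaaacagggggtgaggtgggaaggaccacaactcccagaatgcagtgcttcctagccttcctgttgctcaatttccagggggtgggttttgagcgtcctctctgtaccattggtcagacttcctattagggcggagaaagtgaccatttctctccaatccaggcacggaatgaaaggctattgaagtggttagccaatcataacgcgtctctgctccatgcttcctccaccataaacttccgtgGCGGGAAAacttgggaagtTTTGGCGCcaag

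Among mitotic kinases and cyclins, Cdk1, Ccna2 and Plk1 were called higher. Cdk1, the kinase that drives entry into mitosis, had 1.32, 1.02 and 0.838 CPM in GFP 1 to 3 and 4.25, 2.59 and 1.49 CPM in Cre 1 to 3. Every Cre library was above every GFP library, the highest being Cre 1. The log2 fold change was 1.38 (SE 0.42, adjusted p = 0.131 in edgeR). Ccna2, the cyclin of S phase and mitotic entry and the mitosis gene with the smallest p, had 0.966, 0.867 and 1.62 CPM against 3.34, 2.92 and 2.07 CPM. The groups did not overlap here either. Its log2 fold change was 1.27 (SE 0.34, adjusted p = 0.0977), and the adjusted p lay between 0.0253 and 0.274 over the alternatives. Plk1, a kinase of centrosome maturation and spindle assembly, had 0.356, 0.816 and 0.838 CPM against 1.58, 2.22 and 0.914 CPM. Cre 3 lay just above the highest control. These levels rested on 7 to 54 counts per library, and the log2 fold change was 1.23 (SE 0.46, adjusted p = 0.188). Plk1 was not called when Cre 1, Cre 2 or GFP 1 was left out, with log2 fold changes of 1.23, 0.89 and 0.92.

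Genes of chromosome structure and a marker of proliferation were called higher as well. Top2a, the topoisomerase that untangles sister chromatids, had 1.22, 1.38 and 0.942 CPM in the controls and 4.15, 4.15 and 1.64 CPM in Cre 1 to 3. The groups did not overlap, and Cre 3 was the lowest of its group. Top2a had the largest log2 fold change of the members tested, 1.49 (SE 0.40, adjusted p = 0.1), a 2.80-fold difference. Mki67, the proliferation antigen Ki-67, had 2.90, 1.99 and 3.72 CPM against 7.35, 8.50 and 3.66 CPM. Cre 3 lay just under GFP 3, so these groups overlapped. The log2 fold change of Mki67 was 1.18 (SE 0.36, adjusted p = 0.131). Birc5, survivin of the chromosomal passenger complex, had 2.95, 2.04 and 2.46 CPM against 4.87, 3.82 and 4.14 CPM. Its groups did not overlap, with a log2 fold change of 0.78 (SE 0.22, adjusted p = 0.116).

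Genes of the spindle midzone and of cytokinesis were called too. Kif20a, a kinesin of cytokinesis, had 1.37, 1.12 and 2.20 CPM against 2.82, 3.62 and 2.46 CPM. Nusap1, a spindle protein that binds microtubules, had 0.457, 0.918 and 0.785 CPM against 1.67, 1.52 and 1.40 CPM. Prc1, which bundles the microtubules of the midzone, had 1.37, 1.17 and 1.52 CPM against 2.05, 2.30 and 1.97 CPM. In these 3 genes every Cre library lay above every control. Their log2 fold changes were 0.92 (SE 0.32) for Kif20a, 1.08 (SE 0.33) for Nusap1 and 0.64 (SE 0.25) for Prc1. Kif20a was not called without Cre 2, without GFP 1 or without GFP 2 (log2 fold changes 0.75, 0.83 and 0.73). Nusap1 was not called without GFP 1 (0.83). Prc1 was not called without Cre 1, Cre 2, Cre 3, GFP 1 or GFP 2, and its log2 fold change stayed between 0.54 and 0.72. Foxm1, a transcription factor of mitotic genes, had 0.864, 0.51 and 1.05 CPM against 1.62, 2.51 and 0.963 CPM. Its groups overlapped through Cre 3, and the log2 fold change was 1.08 (SE 0.44, adjusted p = 0.222). Without Cre 2 Foxm1 was not called (0.68), nor without Cre 1 (1.11), GFP 1 (1.12) or GFP 2 (0.83).

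The other mitosis genes did not pass the test. Cks2, a small partner of the cyclin-dependent kinases and the mitosis gene with the highest FPKM, had 7.98, 9.23 and 8.85 CPM against 9.02, 8.46 and 11.2 CPM. It overlapped between groups, with a log2 fold change of 0.14 and a 95% interval from -0.22 to 0.50. The B cyclins Ccnb1 and Ccnb2 had estimates as large as that of Top2a, 1.49 and 1.48, but their SEs were 0.67 and 0.68. Ccnb1 had 2, 5 and 16 counts with GFP and 25, 37 and 13 with Cre, so GFP 3 lay inside the range of the Cre group. Estimates for the spindle checkpoint and kinetochore genes were 0.85 for Cdc20, 0.35 for Bub1b, 0.82 for Cenpe and 1.13 for Cenpf. Bub1, at 2, 2 and 3 counts against 6, 11 and 6, did not overlap between groups but was not tested. Aurkb, the kinase that works with survivin, had an estimate of 0.81, and Aurka, the centrosomal kinase, of 0.27. Estimates were 0.83 for the spindle factor Tpx2, 0.73 for the kinesin Kif11, 0.72 for Cdca3 and 0.59 for Ube2c, a ubiquitin enzyme of mitotic exit. The smallest were 0.14 for Kif23, a kinesin of cytokinesis, and 0.01 for Cdca8, another passenger protein.

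**Figure D2:**
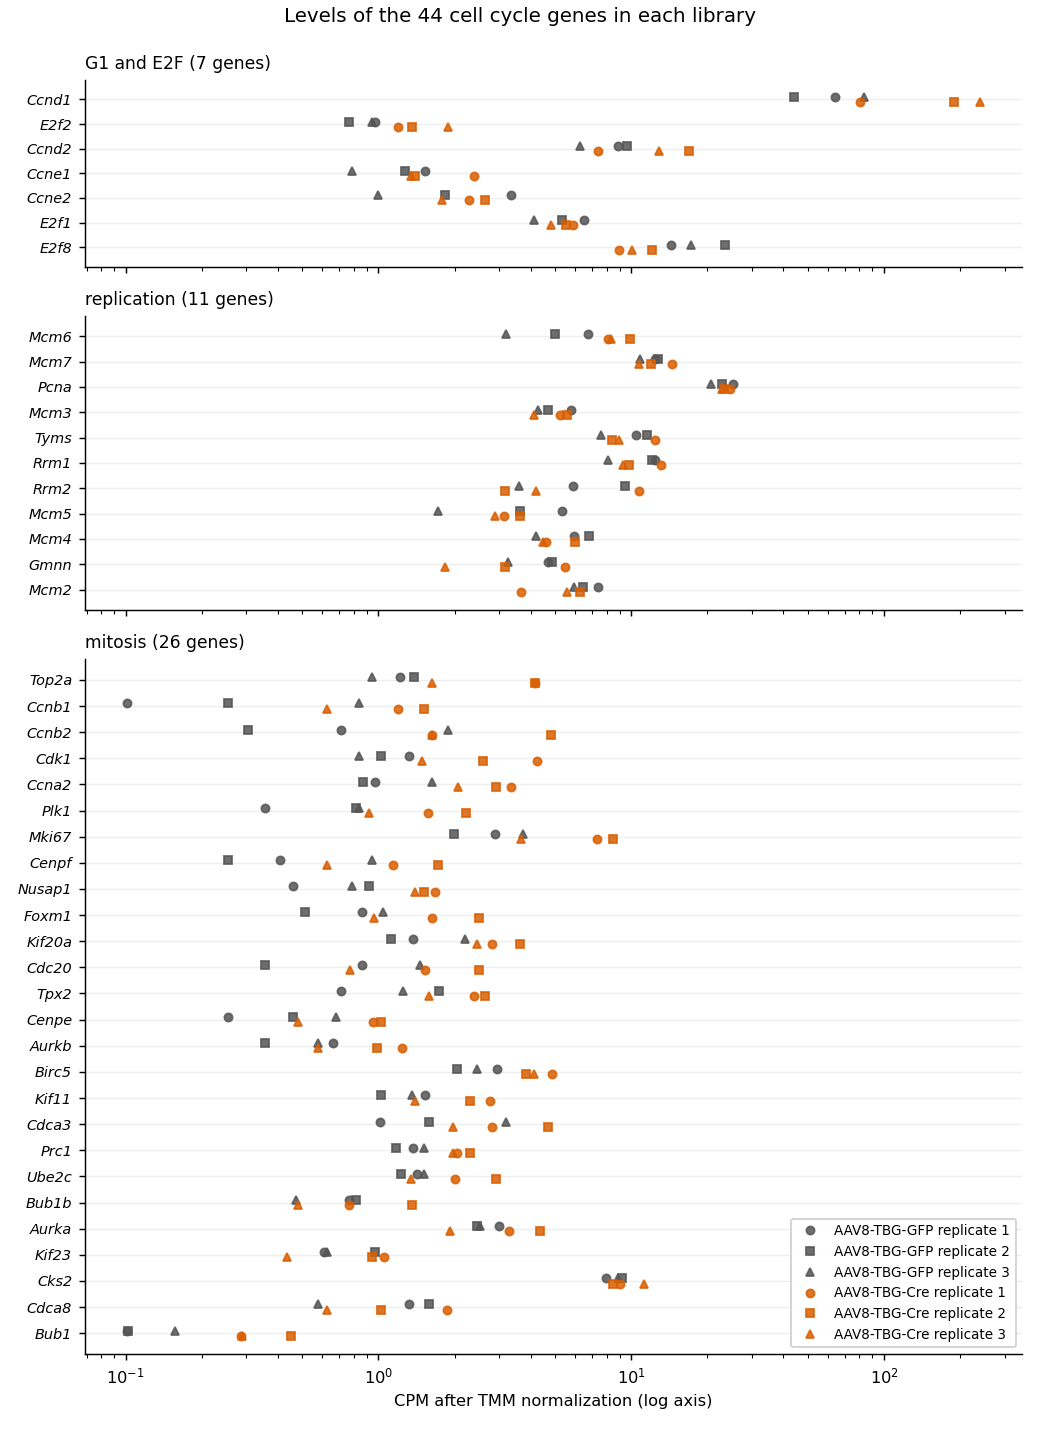
CPM of each of the 44 members on a log axis, in the 3 AAV8-TBG-GFP libraries (grey) and the 3 AAV8-TBG-Cre libraries (orange), 1 symbol per replicate. Most mitosis genes have orange circles and squares to the right of the grey symbols, while orange triangles (replicate 3) lie nearer to them, and the replication genes are mixed.

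The Cre libraries differed among themselves in these genes. Cre 2 was the highest of the 6 libraries for 16 of the 26 mitosis genes, Cre 1 for 9 and Cre 3 for 1. Cre 1 lay above all 3 controls for 22 of the 26, Cre 2 for 23 and Cre 3 for 10. Neither ranking was counted over all genes, so whether it was particular to the mitosis genes was not tested. Summed over the class, the level was 35.2, 34.5 and 42.9 CPM in the controls and 67.6, 75.8 and 46.7 CPM in Cre 1 to 3. The sums did not overlap, and Cre 3 was close to GFP 3. Single genes of the class did not overlap between groups on the higher side in 8 of the 25 tested, against 14.0% of all genes tested. Among the 43 members tested 10 did not overlap on the higher side and 1 on the lower, against 13.0% of all genes on the lower side.

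The higher level of the mitosis genes was present within both forms of the library name. Among short-named libraries 25 of 26 were higher with Cre, with a median log2 ratio of 1.26 for 1 library against 2. Among long-named libraries 26 of 26 were higher, with a median of 0.51 for 2 libraries against 1. Of the replication genes, 10 of 11 were also higher among long-named libraries. Shares over all genes were not counted within name forms, so these counts have no background beside them. With the name form as a covariate, 8 mitosis genes were called higher, beside 1421 of all 13431 genes, and the class median was 0.83. Leaving out 1 library moved the count of called mitosis genes to 6 without Cre 2, to 5 without GFP 1 and to 15 without Cre 3. All genes called higher then numbered 1108 of 13527, 1300 of 13738 and 1555 of 13698, beside 1618 of 13431 in the main fit.

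**Figure D3:**
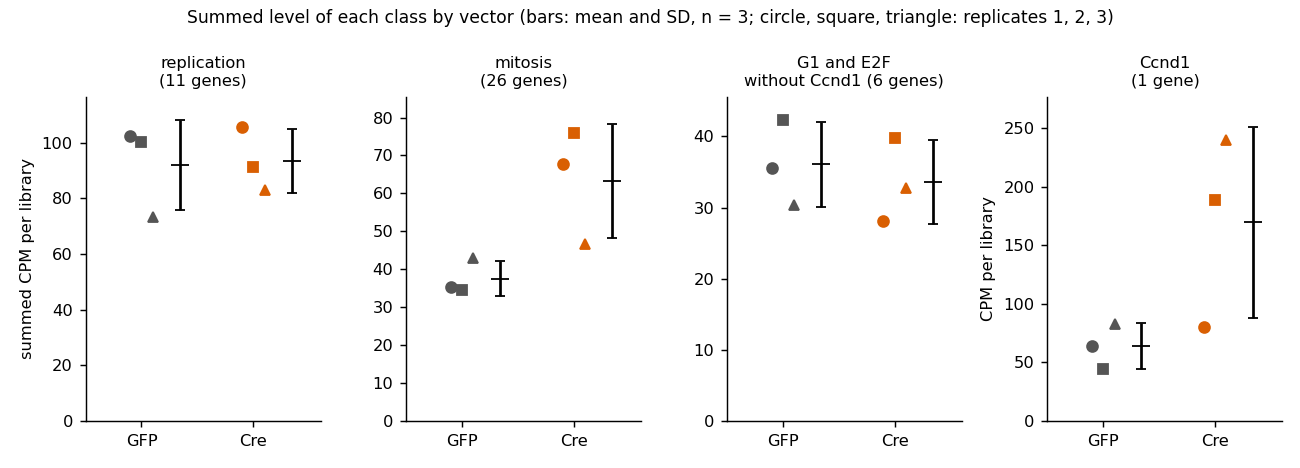
CPM summed over each class in each library (symbols), with mean and SD of the 3 libraries of a group (bars), and Ccnd1 on its own. The mitosis sums are 34.5 to 42.9 with AAV8-TBG-GFP and 46.7 to 75.8 with AAV8-TBG-Cre, and the replication sums overlap.

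Most replication genes differed by less than the spread between libraries. Pcna, the sliding clamp of the DNA polymerases and the replication gene with the highest FPKM, had 25.4, 23.0 and 20.7 CPM in the controls and 24.6, 23.2 and 22.8 CPM in Cre 1 to 3. The groups overlapped fully. The log2 fold change was 0.03, and its 95% interval ran from -0.22 to 0.28. Summed over the 11 genes, the level was 102.5, 100.2 and 73.5 CPM against 105.7, 91.1 and 83.1 CPM, with GFP 3 the lowest library. That library was the lowest for 6 of the 11 genes. Within name forms 8 of 11 were higher with Cre among short-named libraries (median log2 ratio 0.10) and 10 of 11 among long-named ones (0.18), where GFP 3 is the only control.

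The enzymes of deoxynucleotide supply had estimates near 0. The log2 fold change was -0.02 (95% interval -0.51 to 0.47) for Rrm1 and -0.07 (-1.25 to 1.11) for Rrm2, the subunits of ribonucleotide reductase. Tyms, thymidylate synthase, had 0.01 (-0.49 to 0.51). Rrm2 spread widely in both groups, with 5.90, 9.44 and 3.61 CPM against 10.7, 3.16 and 4.19 CPM. Gmnn, geminin, which blocks a new round of licensing, had -0.29 (-1.18 to 0.61).

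Of the subunits of the MCM2-7 helicase, the ring that unwinds DNA ahead of the fork, only Mcm6 was called. Mcm6 had 6.76, 5.00 and 3.19 CPM in the controls and 8.11, 9.86 and 8.33 CPM in Cre 1 to 3. Every Cre library lay above the controls, and GFP 3 was the lowest. Mcm6 was the only replication gene called, which is 9.09% of the class beside 12.0% of all genes called higher. Its log2 fold change was 0.81 (SE 0.26, adjusted p = 0.147), a 1.76-fold difference. It was higher within short-named (log2 ratio 0.46) and long-named libraries (1.51). Without Cre 2 it was not called (0.72), which left 0 replication genes called.

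The estimates of the other 5 subunits were -0.34 for Mcm2, 0.02 for Mcm3, -0.17 for Mcm4, -0.15 for Mcm5 and 0.04 for Mcm7, and none passed the test. Since the 6 subunits form 1 ring, each was also set against the mean FPKM of the other 5 in the same library. For Mcm6 this ratio was 0.854, 0.704 and 0.561 with GFP and 1.19, 1.39 and 1.42 with Cre. For Mcm2 it was 0.869, 0.819 and 0.996 against 0.427, 0.721 and 0.766. Both ratios separated the groups, Mcm6 upwards and Mcm2 downwards, at an exact two-sided permutation p = 0.1, the smallest p that 3 against 3 libraries allow. The same test gave p from 0.3 to 0.8 for the other 4 subunits. The 6 p-values were not adjusted, and none could pass 0.05. The mean behind the ratio of Mcm2 includes Mcm6, and a ratio shows unequal change without showing which subunit changed. The ratios were chosen with the values of Mcm6 known.

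**Figure D4:**
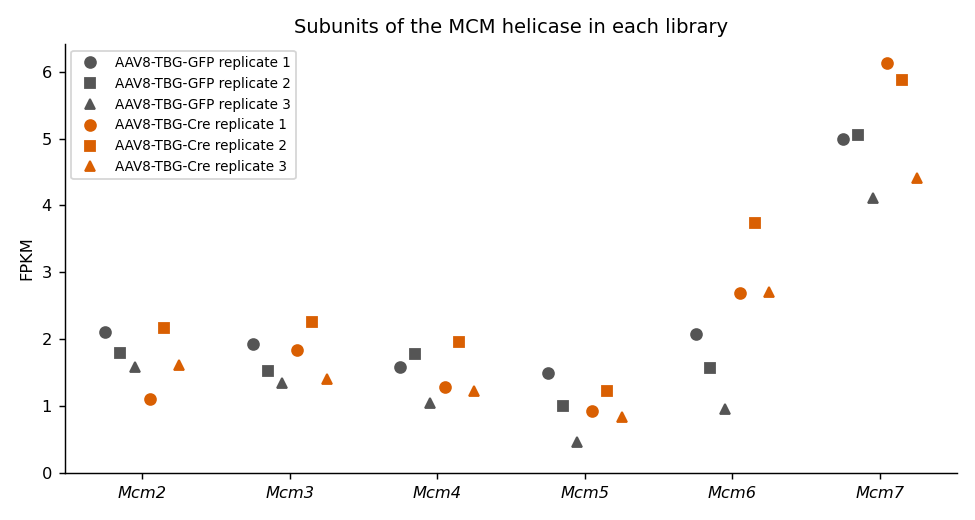
FPKM of the 6 MCM subunits in each library, 1 symbol per replicate, AAV8-TBG-GFP in grey and AAV8-TBG-Cre in orange. Mcm6 runs from 0.96 to 2.07 in the controls and from 2.69 to 3.74 with AAV8-TBG-Cre, while each of the other subunits overlaps between groups.

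Among the G1 and E2F genes, Ccnd1 had the highest FPKM and the largest change. Ccnd1 (chr7:144929931-144939831 on GRCm38.p6), cyclin D1, which couples growth signals to entry into the cycle, had 64.3, 43.9 and 83.1 CPM in the controls and 80.2, 188.8 and 239.4 CPM in Cre 1 to 3. Cre 1 lay under GFP 3, so the groups overlapped. The log2 fold change was 1.41 (SE 0.40, adjusted p = 0.112), a 2.66-fold difference. The short-named libraries gave a log2 ratio of 0.57 and the long-named ones 1.37, and with the name form as a covariate the estimate was 0.97. Without Cre 1 the adjusted p was 0.0238, and over all alternatives it lay between 0.00585 and 0.29. The libraries did not rank for Ccnd1 as for the mitosis genes. Cre 3 was the highest in Ccnd1 and the lowest of its group in the mitosis sum.

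E2f8 (chr7:48866429-48882073), a repressor that works as an atypical E2F and acts on the ploidy of hepatocytes, was the only member called lower. It had 14.4, 23.5 and 17.2 CPM in the controls and 8.97, 12.0 and 10.1 CPM in Cre 1 to 3. The groups did not overlap. E2f8 had the smallest p of all 44 members and fell by 0.82 on the log2 scale (SE 0.20, adjusted p = 0.0854). It was called lower when each of the 6 libraries was left out in turn, with log2 fold changes from -0.98 to -0.61. The ratio was -1.08 within short-named and -0.64 within long-named libraries. Its promoter window held a CHR at position 231 and no E2F element of the letters searched.

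E2f2, an activating E2F factor, had 0.966, 0.765 and 0.942 CPM against 1.19, 1.35 and 1.88 CPM. The groups did not overlap, but the levels rested on 15 to 39 counts. The log2 fold change was 0.72 (SE 0.31, adjusted p = 0.235), and E2f2 was not called without Cre 2 (0.78), Cre 3 (0.51), GFP 1 (0.78), GFP 2 (0.62) or GFP 3 (0.75). The estimate of E2f1, another activator, was 0.03 (95% interval -0.46 to 0.51). Ccnd2, cyclin D2, had 0.59 (-0.11 to 1.30), and the E cyclins Ccne1 and Ccne2, which start S phase, had 0.51 and 0.12. Without Ccnd1, the summed level of the class was 35.6, 42.3 and 30.3 CPM against 28.1, 39.8 and 32.8 CPM, and the groups overlapped.

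Other genes of the cell cycle were counted in the same way. Lists of 121 such genes held 107 that were tested. Called higher were 10 (9.35%, beside 12.0% of all genes), and 2 were called lower, beside 8.41% of all genes. Of the 23 genes of the replication fork tested, 0 were called, and of the 14 of origin licensing and firing 0 were higher and 1 was lower. Nucleotide supply gave 0 of 6. Called higher were 5 of 13 of the spindle and cytokinesis, 3 of 12 of mitotic entry and exit, 1 of 8 of the condensins and cohesins (where 1 more was lower) and 1 of 8 of the inhibitors and pocket proteins. Kinetochore and checkpoint genes gave 0 of 10, and other E2F, D cyclin and MuvB genes 0 of 13. The counts of 0 are by edgeR at an unadjusted p under 0.05 and a fold of 1.2, and the smallest unadjusted p was 0.0523 among fork genes, 0.0702 in nucleotide supply, 0.0759 in kinetochore genes and 0.153 in the E2F and MuvB list. These lists, like the members, were drawn up with earlier results of the same libraries known.

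Cdkn2c, p18INK4C, an inhibitor of the kinases that D cyclins activate, was the only cell cycle gene in these lists past the adjusted threshold. It had 4.32, 3.52 and 3.72 CPM in the controls and 12.0, 8.63 and 8.09 CPM in Cre 1 to 3. The groups lay far apart, and the log2 fold change was 1.31 (SE 0.20, adjusted p = 0.0396). Tubb5, a beta tubulin of dividing and other cells, had 41.8, 36.1 and 38.0 CPM against 53.8, 83.5 and 88.4 CPM (log2 fold change 0.96, adjusted p = 0.0599). Racgap1, which positions the contractile ring, had 0.864, 0.663 and 0.995 CPM against 2.05, 3.08 and 1.40 CPM (1.37, adjusted p = 0.101). In both genes every Cre library was above the controls. On the lower side, Smc1a, a cohesin subunit, had 54.7, 56.8 and 53.8 CPM against 47.3, 39.0 and 41.5 CPM (-0.37, adjusted p = 0.112). Mcm10, a factor of origin firing, had 60.7, 63.6 and 67.2 CPM against 54.3, 39.9 and 51.7 CPM (-0.39, adjusted p = 0.158). These groups did not overlap either. Rfc5, a subunit of the clamp loader, had the next smallest p on that side and was not called (-0.52, adjusted p = 0.243).

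Some markers of other liver cell types were called higher in the Cre libraries, against 12.0% of all genes called higher and 8.41% called lower. Of 10 macrophage and Kupffer cell markers 7 were called higher, Clec4f (0.29), Timd4 (0.29) and Marco (-0.75) were not, and their summed level was 254.2 to 294.1 CPM with GFP and 398.4 to 613.5 CPM with Cre. Of 8 cholangiocyte markers tested all 8 were called higher, with sums of 72.2 to 128.2 CPM against 306.0 to 574.3 CPM. Spp1 alone made up most of the cholangiocyte sum in every library, with 38.0 to 89.0 CPM against 219.0 to 456.7 CPM. Of 9 stellate cell and fibroblast markers 4 were called higher (Col1a1, Col1a2, Col3a1 and Pdgfrb), with sums of 239.2 to 365.6 CPM against 466.6 to 971.9 CPM. The other 5 had log2 fold changes of -0.37 for Acta2, -0.25 for Lrat, -0.10 for Reln, 0.13 for Des and 0.38 for Dcn. In all 3 lists the sum was highest in Cre 2, as for the mitosis genes, whereas Ccnd1 was highest in Cre 3. Cre 2 was also the highest library in the T and NK cell sum (8.87 CPM) and the erythroid sum (706.5 CPM). It was not the highest in the hepatocyte, endothelial, B cell and neutrophil sums. Cre 3 lay near GFP 3 in the mitosis sum but far above every control in the cholangiocyte sum. Their part in the level of the mitosis genes was not tested.

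The other marker lists had fewer genes called. Of 8 hepatocyte markers 1 was called higher (Cps1) and 1 lower (Ttr), near the shares of 12.0% and 8.41% of all genes, and albumin (Alb) did not pass the test. Of 8 endothelial markers 0 were called higher and 1, Stab2, lower, with sums of 178.7 to 290.2 CPM against 189.3 to 221.6 CPM. T and NK cell markers summed to 3.93 to 6.22 CPM against 5.06 to 8.87 CPM, with 1 of 4 tested higher (Cd8a) and 1 lower (Cd4). B cell markers summed to 1.38 to 1.57 CPM against 1.64 to 4.01 CPM, and Cd79a, the only 1 tested, was called higher. Neutrophil markers summed to 11.2 to 12.5 CPM against 11.5 to 15.6 CPM, with 2 of 4 tested higher and 1 lower, and 0 of 4 erythroid markers tested were called. Genes at 0 in at least 1 library included Gzma and Ncr1 of the T and NK list, Ms4a1 of the B cell list and Retnlg and Mpo of the neutrophil list. Their part in these results was not tested either.

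**Figure D5:**
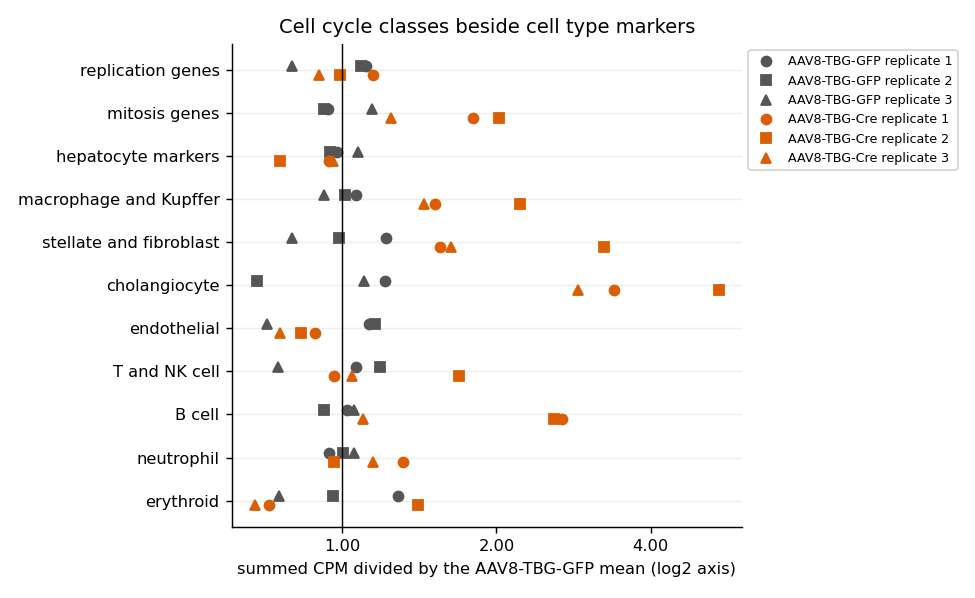
Summed CPM of the replication and mitosis genes and of 9 marker lists in each library, divided by the mean of the 3 AAV8-TBG-GFP libraries, on a log2 axis. In the mitosis, macrophage, stellate and cholangiocyte rows the 3 orange symbols lie to the right of the grey ones with the square (replicate 2) farthest, and in the replication and endothelial rows they overlap.

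Several members share their position with another gene, and the strand setting of the counting is not given in the sources used here. Annotated spans overlapped those of counted genes for Ccnd1 (LTO1), Ccna2 (Exosc9), Kif20a (Brd8 and Cdc23), Nusap1 (Oip5) and Prc1 (Rccd1) among the members called. The values of these genes may include fragments of their neighbours.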

How the data were processed

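Liver RNA of 6 mice was compared by the vector in the sample titles. The files deposited by the authors give each transcript an expected count, which RSEM estimates and which need not be whole, and FPKM per transcript and per gene, scaled by length and mapped fragments. The submitters' processing notes name HISAT2, Bowtie2, RSEM and mm10 without versions of the tools, whereas the paper names STAR, HTSeq and DESeq2. Expected counts were rounded to whole numbers after summing them by NCBI gene ID. edgeR 4.0.16 (R 4.3.3, TMM, filterByExpr, quasi-likelihood test, vector as the only factor) was the main test over 13431 genes. Adjusted p-values are Benjamini-Hochberg over all of them, and standard errors come from the quasi-F statistic. Smallest chi-square per gene between libraries of a group was 24.94, so none was counted as a duplicate. Whether each library is a separate animal is taken from the study, and p-values measure the spread between libraries.

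Members, lists and tests were chosen with earlier results of these data known. Values in every library are given for called members and, in each class, for the member with the highest mean FPKM and the smallest p, and of other cell cycle genes for those past the adjusted threshold and the 3 smallest p in each direction. Alternatives were DESeq2 1.42.0, limma 3.58.1 on log2(FPKM + 1), filtered at FPKM 0.5 in 3 libraries or unfiltered, and on log2(FPKM + 0.1), RLE and upper quartile normalization, other filters on low counts, a fold of 1.5, a replicate block, the library name form as covariate, and leaving out each library. Log2 fold changes from limma are on the log2(value + pseudocount) scale and understate low genes. Steps were tested on simulated data. Counting error is large near 1 CPM, about 20 counts. Of the cell cycle genes listed, 2 (Knl1 and Sgo1) had no row under these symbols.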

Additional observations from a re-analysis of the deposited data

How the results depend on the processing

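The class medians of the mitosis genes stayed above 0 in all fits, and members called lower stayed at 1. Other counts moved. G1 and E2F genes called higher numbered 1 in DESeq2, in the 3 limma fits, without the filter and in the replicate block. Members past the adjusted p numbered 6 in DESeq2. Limma on log2(FPKM + 1) called 8 members and 6 mitosis genes higher, with medians of 0.44 (mitosis) and 0.21 (G1 and E2F), and 0.31 and 0.18 without its filter. With the filter, 1880 of 12138 genes were called higher in all. That filter left out mitosis genes called in edgeR, among them Mki67, Top2a, Plk1 and Foxm1, so the counts of the 2 fits cover different genes. Other cell cycle genes called lower numbered 5 in DESeq2, 4 in the replicate block, and 0 in the 3 limma fits and at a fold of 1.5. Genes called lower in all numbered 376 with limma on log2(FPKM + 0.1), 365 with log2(FPKM + 1), 364 without filter (beside 1995, 1880 and 2019 called higher), 737 with upper quartile normalization (beside 1922) and 407 at a fold of 1.5. Past the adjusted p were 748 genes higher and 409 lower in DESeq2, 1 and 6 in the replicate block, and 65 and 60 in the report. FPKM carry no TMM scaling, and their median over all genes was 0.14 (pseudocount 0.1) and 0.11 (pseudocount 1).

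In fits of all 6 libraries, signs turned in genes whose main estimates ran from -0.17 (Mcm4) to 0.01 (Cdca8). With limma on log2(FPKM + 0.1), log2(FPKM + 1) and log2(FPKM + 1) without filter, Mcm4 was 0.0139, 0.00765 and 0.00765, Mcm5 0.12, 0.034 and 0.034, Rrm1 0.15, 0.11 and 0.11, and Rrm2 0.00653, 0.0121 and 0.0121. The name form as covariate gave Mcm5 0.16, Rrm1 0.17 and Rrm2 0.27. Rrm1 was 0.0428 with upper quartile normalization, Tyms -0.00144 in DESeq2 and -0.00345 without the filter, and Cdca8 -0.000663 without the filter and -0.00848 in the replicate block. The causes were not tested.

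Leaving out 1 library gave 7 to 17 members called higher, 5 to 15 mitosis, 0 to 1 replication and 1 to 3 G1 and E2F genes, 0 to 1 members past the adjusted p, 7 to 15 other cell cycle genes higher and 2 to 8 lower, and 735 to 1712 genes lower in all, with medians of 0.68 to 1.18 (mitosis), -0.20 to 0.07 (replication) and 0.20 to 0.65 (G1 and E2F). Estimates changed sign for Aurka (-0.027 to 0.53), Bub1b (-0.14 to 0.63), Ccne2 (-0.22 to 0.65), Cdca8 (-0.48 to 0.30), E2f1 (-0.14 to 0.19), Gmnn (-0.76 to 0.0164), Kif23 (-0.080 to 0.43), Mcm3 (-0.0801 to 0.15), Mcm5 (-0.49 to 0.26), Mcm7 (-0.0834 to 0.13), Pcna (-0.0489 to 0.10), Rrm1 (-0.20 to 0.0796), Rrm2 (-0.79 to 0.34) and Tyms (-0.19 to 0.14). All genes called higher numbered 1108 to 2018 with 1 library left out. In the replicate block, 10 members and 8 mitosis genes were called higher, beside 1504 of all 13431 genes. Deviations of same-numbered libraries from their group means correlated at 0.009, -0.26 and 0.21. Pairs of unlike number reached -0.277 and 0.309. With 3 libraries in a group, these values can neither show nor exclude a pairing by number. Depth limits the mitosis genes most, where the lowest tested member had 2 counts in a library.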

Other observations

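Transcript estimates differed between the groups in some members, and these genes were chosen after their values were seen. Birc5 had 2 transcripts in the files. The shorter, NM_009689 (977 bases), had 2.59, 2.49 and 14.5 expected counts in GFP 1 to 3 and 36.8, 37.9 and 24.4 in Cre 1 to 3, whereas the longer, NM_001012273 (3416 bases), had 55.1, 37.8 and 32.5 against 65.1, 54.9 and 61.5. The shorter transcript did not overlap between groups and the longer did, since Cre 2 was under GFP 1. All counts of Nusap1 went to NM_001042652 (2861 bases) in the 3 GFP libraries and to NM_133851 (2960 bases) in the 3 Cre libraries. Prc1 and Mcm5 had such splits too, but not by group. For Mcm5 all counts went to NM_008566 in Cre 1 and Cre 3 and to NM_001302540 in the other 4 libraries. These splits are estimates and were not tested.

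Pttg1, securin, had 18.0 CPM in GFP 3 and 2.02 to 3.49 CPM in the other 5 libraries, and was named after its values were seen. Cdkn1a, the inhibitor p21, ran from 10.9 to 49.8 CPM in GFP 1 to 3 and from 11.4 to 45.7 CPM in Cre 1 to 3, so its spread within each group was larger than the difference between them. E2f8 was called lower in each alternative run.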
